A study of Homo sapiens with 18 samples.

Results

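The transcriptional response to hypoxia was compared between RCC4, a clear cell renal carcinoma line, and HepG2, a liver tumour line. The comparison rested on 12 of the 18 polyA+ RNA-seq samples of the series, namely the 6 RCC4 and the 6 HepG2 samples, chosen by their cell line labels, with 3 normoxic and 3 hypoxic replicates in each line. The RCC4 samples are labelled RCC4+VHL, that is RCC4 cells, which have lost their own functional VHL tumour suppressor, given VHL back, and the HepG2 cells carried no stated modification. Hypoxic RCC4 cells are labelled as kept in 1.0% oxygen for 24 h and hypoxic HepG2 cells in 0.5% oxygen for 16 h, whereas the text of the study gives the HepG2 conditions for every line. Cell line, oxygen level and duration therefore cannot be told apart in what follows. All cells were grown in serum-containing medium and hypoxic cells were incubated in a hypoxia workstation. No label ties a replicate to a separate culture, so that p-values measure the spread between these samples, which may be technical.

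Cells sense oxygen through prolyl hydroxylases that mark HIF-α subunits for capture by VHL and destruction, and when oxygen falls HIF-1α and HIF-2α accumulate, pair with HIF-1β (ARNT) and bind the core sequences ACGTG or GCGTG near their target genes. Targets shared by many cell types serve glycolysis, angiogenesis and the turnover of mitochondria, whereas other targets depend on which enhancers are open in a given cell. Renal carcinoma lines derive from tubular epithelium, in which loss of VHL is the usual founding event, and HepG2 cells retain much of the secretory and lipid-synthesising programme of hepatocytes.

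The 12 libraries held 40915980 to 51794355 counted reads each, so that 3 reads in a sample, taken as the limit that a count of 0 allows, corresponded to 0.0579 to 0.0733 CPM (counts scaled to a common library size). Limits of this kind cover counting error only. Of the 23106 genes in each file 14813 passed a filter on low counts and were tested. The lines matched their labels: 12 liver markers summed to between 38200 and 43600 CPM in every HepG2 sample and to between 9.73 and 13.3 CPM in RCC4, whereas 10 markers of renal tubule and renal carcinoma summed to between 3990 and 4650 CPM in RCC4 and to between 14.6 and 20 CPM in HepG2. Most of the renal sum came from VIM (means of 1870 CPM in normoxic and 2680 CPM in hypoxic RCC4) and NNMT (1140 and 1160 CPM). PAX8, PAX2, CDH16, CDH6, CD70 and VCAM1 were also higher in RCC4 than in HepG2. CUBN and LRP2, the endocytic receptors of the proximal tubule, nevertheless had group means at or under 0.679 CPM in RCC4. The leukocyte markers PTPRC and CD3E had no count in any sample, and the fibroblast collagen COL3A1 had none in RCC4 and at most 4 counts in HepG2. Most of the leukocyte marker sum (11 to 13.6 CPM in RCC4, 48.8 to 66.1 in HepG2) came from CD68, and most of the fibroblast sum (44.5 to 63.9 and 27 to 68 CPM) from PDGFRB, whose mean was 21.9 CPM in normoxic and 55 CPM in hypoxic HepG2 cells; the part of either in the results was not tested. Replicates varied more in HepG2 (biological coefficient of variation 0.0733 when fitted alone) than in RCC4 (0.0437), and 1 common estimate was used for both lines. The normoxic HepG2 group varied most: chi-square per degree of freedom between pairs of its replicates was 13.8 to 33. It was 6.5 to 9.72 in hypoxic HepG2, 4.57 to 6.39 in normoxic RCC4 and 5.13 to 7.3 in hypoxic RCC4. Every HepG2 response is measured against that normoxic group.

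The transcripts of the HIF system itself were examined first. HIF1A mRNA (chr14:62162231-62214977, GRCh37) was measured at 367, 366 and 357 CPM in the normoxic and 312, 312 and 315 CPM in the hypoxic RCC4 samples, and at 291, 286 and 359 and 303, 304 and 313 CPM in HepG2. The RCC4 groups did not overlap (log2 fold change -0.21 ± 0.064, edgeR adjusted p = 0.014) and the HepG2 groups did. EPAS1, which encodes HIF-2α, rose in both lines, by 0.26 ± 0.060 on the log2 scale in RCC4 and by 0.39 ± 0.060 in HepG2 (edgeR adjusted p = 0.0023 and 3.5e-05). Values after ± are SEs of the edgeR fit throughout, with 3 replicates per group. They rest on variation estimated jointly for the lines in the fit, and do not measure the spread of each line's own replicates. For HIF1A the SE was 0.064 in both lines, although normoxic SDs were 5.76 CPM in RCC4 and 41.1 CPM in HepG2. Intervals of differences rest on the same fit. The difference between the responses, always given as RCC4 minus HepG2, was -0.19 ± 0.091 for HIF1A, -0.13 ± 0.085 for EPAS1, -0.041 ± 0.089 for ARNT and -0.021 ± 0.092 for VHL, and did not pass the test for any of the 4 genes (edgeR adjusted p = 0.15, 0.31, 0.82 and 0.94). Without the third normoxic HepG2 replicate, however, those of HIF1A and EPAS1 passed, at -0.30 and -0.20. In bulk RNA, fewer responding cells and a smaller change in each cell cannot be told apart, here or below. Of the 10 tested genes of the list of HIF subunits and regulators, the response of 2 was higher in HepG2 (4 without the third normoxic HepG2 replicate) and that of none in RCC4, where over all genes tested 22.6% differed, 11.7% in favour of HepG2 and 10.9% in favour of RCC4. The 2 genes were EGLN1, the main oxygen-sensing prolyl hydroxylase, which rose by 0.79 ± 0.075 in RCC4 and 1.43 ± 0.077 in HepG2, and CITED2, which encodes a protein that competes with HIF-α for the coactivators p300 and CBP. CITED2 (chr6:139692944-139695785) was at 20.3, 18.8 and 16.9 CPM in normoxic and 122, 112 and 118 CPM in hypoxic HepG2 cells, against 287, 299 and 289 and 342, 330.2 and 314 CPM in RCC4. It was thus higher in normoxic RCC4 cells than in hypoxic HepG2 cells in every sample, and its responses differed by -2.48 ± 0.083 (edgeR adjusted p = 6.2e-14).

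Across all genes tested, 2662 (18%) were induced and 2445 (16.5%) repressed by hypoxia in RCC4, and 3052 (20.6%) were induced and 2933 (19.8%) repressed in HepG2, at an edgeR adjusted p under 0.05. The balance of induced and repressed genes depended on scaling: with libraries scaled by total count alone it was 1878 to 3868 in RCC4 and 2221 to 4493 in HepG2. Which line had more such genes depended on the shared estimate of variation. With each line fitted apart, 3318 genes were induced and 3105 repressed in RCC4, against 2708 and 2621 in HepG2. With voom and group variances the numbers were 3265 and 3159 in RCC4 and 2700 and 2578 in HepG2. The response itself differed between the lines for 3354 genes, 1618 with the higher response in RCC4 and 1736 in HepG2. With all 18 samples of the series in the fit, 1886 differences were called, 925 and 961. A gene that is almost silent in 1 line gives a poorly determined difference, so that the main description rests on the 10389 genes (70.1% of those tested) with a mean of at least 1 CPM in each of the 4 groups. Among these, 2981 differed (28.7%), in nearly even numbers, 1500 in favour of RCC4 and 1481 in favour of HepG2. Most such differences were small, with a median size of 0.419 on the log2 scale. Differences of at least 1 on that scale, that is at least 2-fold, were found for 44 genes in favour of RCC4 and 141 in favour of HepG2. Induction of at least 2-fold was called for 101 of these genes in RCC4 and 224 in HepG2, and repression of that size for 21 and 13. Across these 10389 genes the log2 fold changes of the lines had a Pearson correlation of 0.515 and a Spearman correlation of 0.436, given as a description since genes are not independent replicates.

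**Figure D1:**
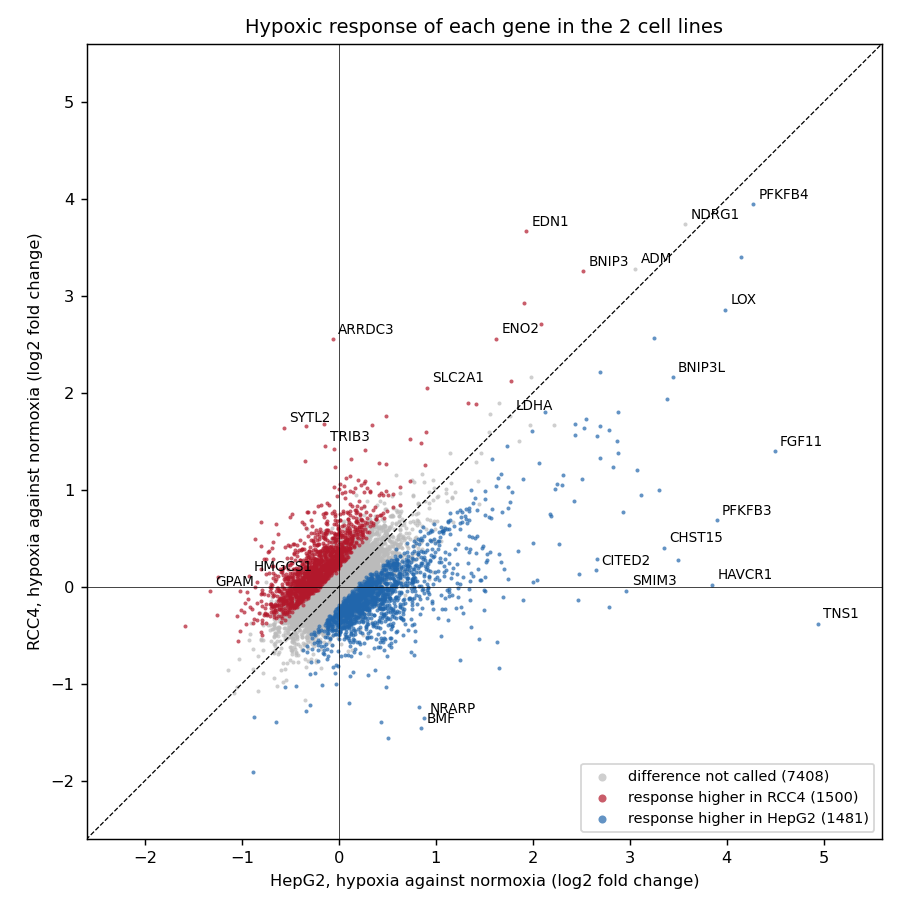
Log2 fold change in hypoxia in HepG2 (x axis) and RCC4 (y axis) for the 10389 genes with a mean of at least 1 CPM in all 4 groups; each point is a gene, red where the response was called higher in RCC4 (1500), blue where it was called higher in HepG2 (1481) and grey otherwise, and the dashed line marks equal responses. Points of large induction lie more often to the HepG2 side, with TNS1 at 4.94 in HepG2 and -0.38 in RCC4, while ARRDC3 and EDN1 lie on the RCC4 side and LDHA (1.77 and 1.77) on the line.

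The 3354 differences were of several kinds. Where the response was higher in HepG2, 266 genes were induced in both lines, 718 were called induced in HepG2 alone, 430 were called repressed in RCC4 alone and 34 were repressed in both, more weakly in HepG2. Another 245 genes were repressed in RCC4 and induced in HepG2. Where it was higher in RCC4, 102 genes were induced in both lines, 528 were called induced in RCC4 alone, 653 were called repressed in HepG2 alone and 111 were repressed in both, while 176 were induced in RCC4 and repressed in HepG2. The remaining 43 and 48 genes were called in neither line alone. Of the 141 differences of at least 1 in favour of HepG2 among genes at 1 CPM or more, 39 concerned genes induced in both lines, 48 genes called induced in HepG2 alone and 48 genes that changed in opposite directions. Of the 44 in favour of RCC4, the corresponding numbers were 6, 16 and 14.

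Some hypoxia-inducible genes responded alike. Of 106 genes induced at least 2-fold in both lines, 51 nevertheless differed, 10 in favour of RCC4 and 41 in favour of HepG2, and for 14 the 95% interval of the difference lay within 0.5 of 0 on the log2 scale. The closest match among the named genes was LDHA (chr11:18416107-18429972), the lactate dehydrogenase subunit that regenerates NAD+ in glycolysing cells. LDHA was measured at 2568, 2541 and 2629 CPM in normoxic and 8666, 8819 and 8847 CPM in hypoxic RCC4 samples, and at 1274, 1126 and 1191 and 4151, 3978 and 4088 CPM in HepG2. Levels were about 2-fold apart between the lines, but the log2 fold changes were 1.77 ± 0.050 and 1.77 ± 0.050, and the 95% interval of their difference was -0.14 to 0.14. NDRG1, a stress-responsive gene used as a hypoxia marker in tumours, rose from 48.0, 50.7 and 48.9 to 657, 653 and 660.0 CPM in RCC4 and from 40.0, 39.9 and 48.7 to 537, 459 and 529.9 CPM in HepG2, with a difference of 0.17 ± 0.10 (interval -0.036 to 0.38). ADM, the vasodilator peptide adrenomedullin, rose from 7.89, 8.13 and 8.28 to 77.8, 82.2 and 76.4 CPM and from 7.23, 7.55 and 8.01 to 60.3, 61.6 and 67.5 CPM. Its difference was 0.23 ± 0.095 (edgeR adjusted p = 0.095; interval 0.029 to 0.43), and passed the test when the third hypoxic HepG2 replicate was left out. FAM162A, a mitochondrial protein gene, differed by 0.19 ± 0.12 (interval -0.073 to 0.44). PGK1, the phosphoglycerate kinase of glycolysis, also fell within these bounds, with responses of 1.80 ± 0.050 and 2.13 ± 0.051, although its difference of -0.33 ± 0.069 passed the test (edgeR adjusted p = 0.0018), so that a like response is here a matter of size and not of the p-value. SLC2A5 met the same bounds on 0, 0 and 0 counts in normoxic and 5, 2 and 4 counts in hypoxic RCC4 samples, and its difference is not interpretable.

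Promoter sequences are shown for 2 genes induced alike, LDHA and PGK1, for CITED2, which was induced far more in HepG2, and for EDN1, which was induced far more in RCC4. They are the 250 bases before the RefSeq start (GRCh38.p14, 5′ to 3′ on the gene's strand), with every ACGTG or GCGTG on either strand in capitals; CACGTG is a match on both strands. The windows are chr11:18394313-18394562 (+) for LDHA, chrX:78103998-78104247 (+) for PGK1, chr6:139374649-139374898 (-) for CITED2 and chr6:12287769-12288018 (+) for EDN1.
LDHA: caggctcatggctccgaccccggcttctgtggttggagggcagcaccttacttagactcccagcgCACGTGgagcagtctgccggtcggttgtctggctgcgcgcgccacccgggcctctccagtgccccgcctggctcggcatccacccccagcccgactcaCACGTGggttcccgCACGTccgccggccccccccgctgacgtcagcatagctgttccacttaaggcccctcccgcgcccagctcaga
PGK1: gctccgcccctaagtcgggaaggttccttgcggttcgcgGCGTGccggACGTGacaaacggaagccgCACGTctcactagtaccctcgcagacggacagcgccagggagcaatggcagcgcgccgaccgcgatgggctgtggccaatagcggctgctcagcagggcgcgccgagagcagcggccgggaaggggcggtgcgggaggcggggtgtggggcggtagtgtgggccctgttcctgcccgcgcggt
CITED2: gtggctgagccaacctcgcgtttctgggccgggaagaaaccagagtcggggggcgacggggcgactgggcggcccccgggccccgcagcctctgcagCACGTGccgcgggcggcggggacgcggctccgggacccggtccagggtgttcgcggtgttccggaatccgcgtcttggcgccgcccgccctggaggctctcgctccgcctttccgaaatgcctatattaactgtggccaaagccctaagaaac
EDN1: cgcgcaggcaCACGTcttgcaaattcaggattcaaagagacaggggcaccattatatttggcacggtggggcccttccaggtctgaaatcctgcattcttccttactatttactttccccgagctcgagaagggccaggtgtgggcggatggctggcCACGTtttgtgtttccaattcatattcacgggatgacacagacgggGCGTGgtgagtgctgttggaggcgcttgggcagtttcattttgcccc
LDHA held 5 matches in this window, PGK1 3, CITED2 2 (1 CACGTG) and EDN1 3. The 8 genes with the largest differences in each direction were mixed in the window from 250 bases before to 50 after the start. In favour of RCC4, ARRDC3, PCDH1, IL8 and F3 held no match, TRIB3 held 6, KIAA0513 and EDN1 3 each, and SYTL2 had no matched promoter. In favour of HepG2, HAVCR1 held no match, FAM13A, ABCA7 and CHST15 held 2 each, and TNS1, PFKFB3, FGF11 and SMIM3 held 1 each. Over windows from 250 bases before to 50 after the start, 48.4% of the 27305 promoters in the RefSeq table held ACGTG or GCGTG and 21.6% held ACGTG. Of the 11473 tested genes with a matched promoter 61.6% held either and 25.9% held ACGTG. Of genes at 1 CPM or more in all groups, 65.4% of the 8553 with a matched promoter held either and 28.0% held ACGTG. For genes induced at least 2-fold in both lines the shares were 75.0% and 52.6% (76 of 106 matched; of the 106, 60 reached 1 CPM in all groups), for the 141 genes higher in HepG2 by at least 1 they were 69.4% and 36.7% (98 matched), and for the 44 higher in RCC4 they were 51.5% and 15.2% (33 matched). These shares describe letters in a short window and not bound sites.

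Among genes at 1 CPM or more, the largest difference of all was that of TNS1 (chr2:218664311-218898705), which encodes tensin 1, a link between integrins and the actin cytoskeleton. TNS1 stood at 4.06, 4.16 and 3.72 CPM in normoxic and 125, 116 and 125 CPM in hypoxic HepG2 cells, a log2 fold change of 4.94 ± 0.069, whereas RCC4 cells went from 53.2, 55.8 and 54.0 to 43.3, 40.7 and 41.0 CPM, a log2 fold change of -0.38 ± 0.054. The gene was therefore induced over the RCC4 level in one line and modestly repressed in the other (difference -5.32 ± 0.087, edgeR adjusted p = 6.1e-19). HAVCR1 (chr5:156453753-156496407), the kidney injury molecule KIM-1 of damaged tubules, was abundant and flat in RCC4, at 269, 258 and 249 CPM in normoxia and 266, 256 and 265 CPM in hypoxia. In HepG2 cells it rose from 1.06, 1.30 and 1.32 to 16.5, 17.1 and 19.5 CPM, still far under the RCC4 level (difference -3.83 ± 0.11, edgeR adjusted p = 9.2e-15).

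The other 6 of the 8 largest differences in favour of HepG2 followed similar courses. PFKFB3 (chr10:6186897-6296607), which makes the fructose 2,6-bisphosphate that drives phosphofructokinase, rose from 11.9, 12.3 and 13.9 to 192, 178 and 199 CPM in HepG2 and from 223, 218 and 213 to 356, 339 and 357 CPM in RCC4. Normoxic RCC4 cells thus held more PFKFB3 mRNA than hypoxic HepG2 cells in every sample, and the responses differed by -3.21 ± 0.083. FGF11 (chr17:7341592-7348256), an intracellular member of the FGF family, rose in both lines, by 1.40 ± 0.10 in RCC4 and 4.50 ± 0.11 in HepG2. FAM13A (chr4:89647106-90032549) went from 2.56, 1.94 and 1.92 to 24.4, 24.9 and 23.1 CPM in HepG2 and from 4.70, 5.71 and 5.42 to 6.01, 5.88 and 7.28 CPM in RCC4, where the change did not pass the test (edgeR adjusted p = 0.077). SMIM3 (chr5:150158319-150176296), a small membrane protein gene, started at like levels in both lines, 14.9, 13.9 and 12.6 CPM in HepG2 and 12.8, 12.2 and 11.9 CPM in RCC4, and reached 112, 102 and 109.5 CPM in hypoxic HepG2 cells while it stayed between 11.1 and 12.5 CPM in hypoxic RCC4 cells. CHST15 (chr10:125767184-125853114), a chondroitin sulfate sulfotransferase, rose by 3.35 ± 0.063 in HepG2 and 0.40 ± 0.059 in RCC4, and ABCA7 (chr19:1039996-1065571), a lipid transporter of the ABC family, by 2.78 ± 0.10 in HepG2 against -0.21 ± 0.14 in RCC4 (edgeR adjusted p of the RCC4 change = 0.27). For 6 of the 8 genes every normoxic HepG2 sample lay below every normoxic RCC4 sample, and SMIM3 and ABCA7 were the exceptions, a count made after the values were seen. The same count was not made over all genes, so that it does not set these genes apart.

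In favour of RCC4 the largest difference was that of ARRDC3 (chr5:90664448-90679134), which encodes an α-arrestin that directs membrane receptors to degradation. ARRDC3 rose from 33.5, 34.7 and 38.1 to 200.5, 218 and 205 CPM in RCC4 and stood at 24.4, 27.3 and 28.3 CPM in normoxic and 23.8, 24.5 and 28.2 CPM in hypoxic HepG2 cells, where the groups overlapped (difference 2.62 ± 0.10, edgeR adjusted p = 6.5e-13). Normoxic levels were somewhat lower in HepG2, and did not overlap. SYTL2 (chr11:85405267-85522202), an effector of Rab27 in vesicle traffic, rose from 101, 98.9 and 105 to 323, 313 and 314 CPM in RCC4, and fell from 2.34, 1.52 and 1.64 to 1.33, 1.08 and 1.31 CPM in HepG2, where it was scarcely expressed. PCDH1 (chr5:141232655-141258811), a protocadherin, rose by 1.66 ± 0.13 and KIAA0513 (chr16:85061388-85127836) by 1.68 ± 0.090 in RCC4, against changes of -0.34 ± 0.15 and -0.15 ± 0.12 in HepG2 that did not pass the test (edgeR adjusted p = 0.089 and 0.32).

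Several of the remaining genes encode secreted or signalling proteins. EDN1 (chr6:12290594-12297427), the vasoconstrictor endothelin 1, started at 1.55, 2.17 and 1.49 CPM in RCC4 and 1.98, 1.72 and 1.32 CPM in HepG2, and reached 22.0, 23.2 and 21.6 and 6.82, 6.77 and 5.56 CPM. It was thus induced in both lines from overlapping normoxic levels, by 3.67 ± 0.14 and 1.93 ± 0.15, and the difference of 1.74 ± 0.22 passed the test (edgeR adjusted p = 9.5e-06). IL8 (CXCL8, chr4:74606236-74609433), the neutrophil chemokine, rose by 1.30 ± 0.11 in RCC4 and fell by 0.35 ± 0.12 in HepG2, where normoxic and hypoxic samples overlapped at 8.13, 10.7 and 11.5 and 7.73, 7.13 and 9.04 CPM. F3 (chr1:94994729-95007315), tissue factor, the initiator of coagulation, went from 31.5, 31.8 and 31.3 to 84.1, 84.0 and 85.4 CPM in RCC4 and from 6.88, 9.71 and 8.93 to 7.38, 8.49 and 8.69 CPM in HepG2. TRIB3 (chr20:343479-378203), a pseudokinase of the stress response, went from 115, 124 and 130.1 to 335, 345 and 326 CPM in RCC4 and from 172, 180.0 and 205 to 172, 148 and 184 CPM in HepG2 (difference 1.59 ± 0.10).

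Responses in opposite directions were found on both sides, and the examples in this paragraph other than ESPN were chosen after their values were seen, since the rule for opposite responses otherwise led to genes that were nearly silent in a group. BMF (chr15:40380091-40401093), a pro-apoptotic BH3-only protein gene, fell from 9.46, 9.59 and 9.60 to 3.14, 4.20 and 3.08 CPM in RCC4 and rose from 8.75, 7.79 and 7.87 to 14.7, 14.5 and 14.7 CPM in HepG2, with no overlap in either line. NRARP, a feedback inhibitor of Notch signalling, changed by -1.36 ± 0.11 in RCC4 and 0.88 ± 0.16 in HepG2. ELF3, an epithelial ETS factor, fell from 176, 170.4 and 170.4 to 103, 98.2 and 105 CPM in RCC4 and rose from 13.3, 11.1 and 11.3 to 30.4, 26.3 and 28.2 CPM in HepG2. KIAA1199, which encodes the hyaluronan-degrading protein CEMIP, changed by -0.84 ± 0.22 and 1.66 ± 0.090, DUSP8, a MAP kinase phosphatase, by -0.71 ± 0.11 and 0.78 ± 0.11, and ELFN1 by -1.24 ± 0.11 and 0.82 ± 0.16. ESPN, the actin-bundling protein espin, fell from 3.27, 2.74 and 2.77 to 1.23, 0.877 and 0.699 CPM in RCC4 and rose from 30.4, 25.3 and 22.4 to 130.4, 111 and 122 CPM in HepG2. In the other direction NFKBIZ, an atypical IκB that modulates NF-κB targets, changed by 0.67 ± 0.13 in RCC4 and -0.80 ± 0.14 in HepG2, SCARA3 by 0.65 ± 0.094 and -0.65 ± 0.14, MARCH3 by 0.55 ± 0.087 and -0.63 ± 0.11, C4orf32 by 0.72 ± 0.24 and -0.50 ± 0.18, and NAV3 by 0.50 ± 0.10 and -0.86 ± 0.15.

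Glycolysis was induced in both lines, but mostly more in HepG2. Of 21 genes of glucose uptake and glycolysis 20 were induced in each line, and the responses of 15 were higher in HepG2 and of 4 in RCC4 (14 and 2 with all 18 samples), with a median difference of -0.479 against 0.00315 over all genes tested. The median response was 0.904 in RCC4 and 1.51 in HepG2. Over all genes tested 11.7% responded more in HepG2 and 10.9% more in RCC4, the shares to be set beside the counts of every list below. These shares are low for lists of well expressed genes. Of the 10389 genes at 1 CPM or more in all groups, 28.7% differed, 1481 in favour of HepG2 and 1500 in favour of RCC4. Of the 21 glycolytic genes, 20 were at that level. Several trunk enzymes of the pathway differed by similar amounts: GAPDH rose by 0.60 ± 0.045 and 1.14 ± 0.046 in RCC4 and HepG2, ENO1 by 0.69 ± 0.044 and 1.34 ± 0.044, and ALDOA, TPI1, GPI, PGAM1 and PKM differed by between -0.60 and -0.46. HK1, the constitutive hexokinase, stood out with a rise from 3.22, 3.39 and 2.82 to between 18.8 and 21.6 CPM in HepG2 and from 70.0, 69.6 and 67.5 to 175, 171 and 173 CPM in RCC4 (difference -1.38 ± 0.10). PDK1, a pyruvate dehydrogenase kinase, rose by 2.57 ± 0.076 and 3.25 ± 0.079.

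The exceptions that favoured RCC4 were both glucose transporters, a hexokinase and an enolase. SLC2A1, the transporter GLUT1, rose from 242, 253 and 246 to 1036, 1047 and 1000.0 CPM in RCC4 and from 1465, 1444 and 1557 to 2759, 2682 and 2948 CPM in HepG2. Its response was larger in RCC4 (difference 1.15 ± 0.069, edgeR adjusted p = 5.2e-10), yet hypoxic RCC4 cells remained under the normoxic HepG2 level. ENO2, the neuronal enolase, rose by 2.56 ± 0.073 in RCC4 and 1.62 ± 0.067 in HepG2, and HK2, the inducible hexokinase, by 2.13 ± 0.070 and 1.78 ± 0.068. SLC2A3, the high-affinity transporter GLUT3, was abundant in HepG2, at 339, 353 and 393 CPM in normoxia and 2384, 2447 and 2583 CPM in hypoxia, whereas RCC4 held 0, 1 and 0 counts in normoxia and 56, 32 and 29 counts in hypoxia. Its call in favour of RCC4 rests on these few counts and was lost in the fit of all 18 samples (edgeR adjusted p = 0.060).

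Glycogen genes went the same way. Of 9 tested, 6 responded more in HepG2 and none more in RCC4 (median difference -0.551). GBE1, the glycogen branching enzyme, rose from 37.6, 33.1 and 40.9 to 206, 197 and 196 CPM in HepG2 and from 89.3, 82.1 and 86.8 to 154, 167 and 157 CPM in RCC4, and GYS1, glycogen synthase, by 2.25 ± 0.055 and 1.06 ± 0.053. Of 8 genes of acid and lactate export, 3 responded more in HepG2 (5 with DESeq2, 1 with all 18 samples, and 2 when any of 5 single libraries was left out), among them SLC16A3, the lactate exporter MCT4, which rose by 0.98 ± 0.051 in RCC4 and 1.50 ± 0.050 in HepG2. CA9, the tumour-associated carbonic anhydrase and a standard HIF-1 target, rose from 0.397, 0.462 and 0.716 to 184, 175 and 192 CPM in HepG2, but was at 0 in all 3 normoxic and at 0.123, 0.0797 and 0.0617 CPM in hypoxic RCC4 samples. With no count in normoxic RCC4 cells the difference between the lines cannot be estimated (edgeR adjusted p = 0.92). EGLN3, the most inducible of the HIF prolyl hydroxylases, was likewise at or under 0.144 CPM in every RCC4 sample and rose from 1.39, 0.836 and 0.415 to 43.6, 30.0 and 31.8 CPM in HepG2.

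**Figure D2:**
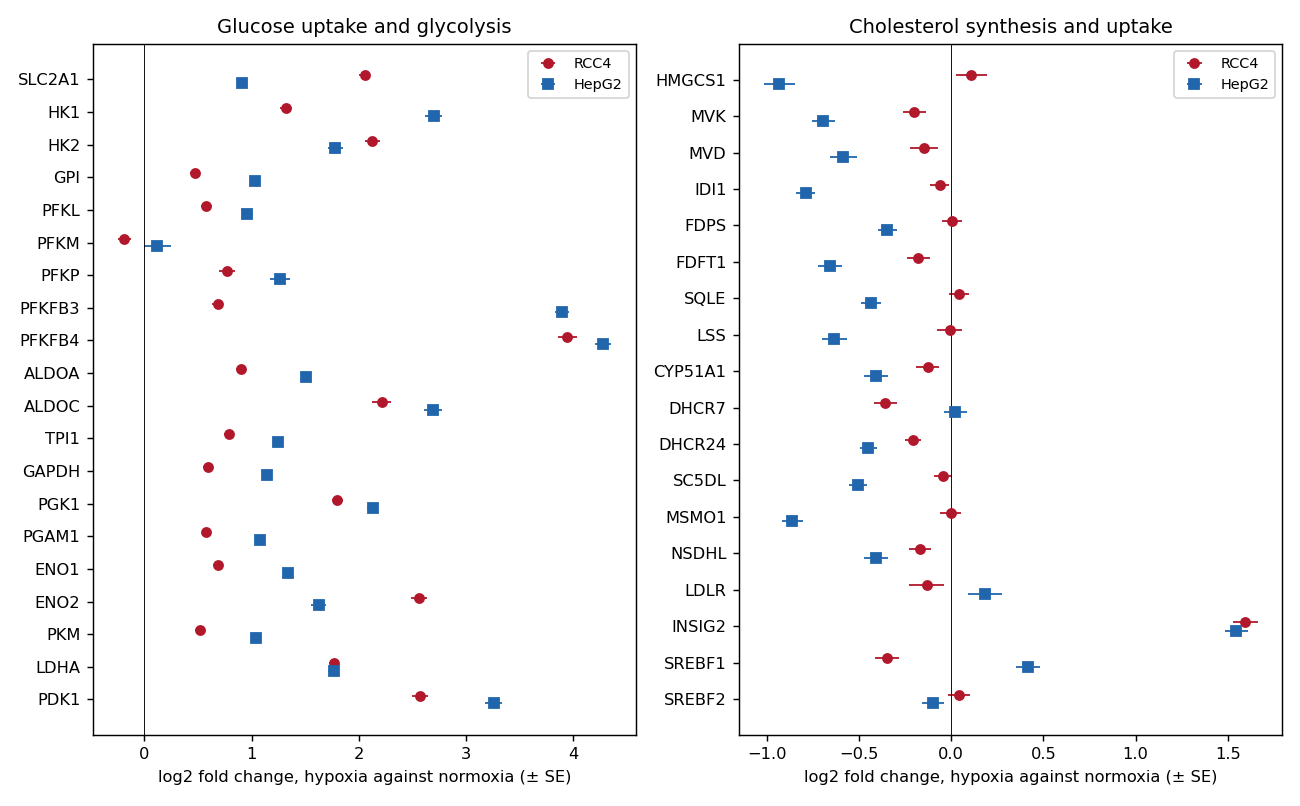
Log2 fold change in hypoxia (x axis, ± SE of the edgeR fit, 3 replicates per group) of members of 2 lists with a mean of at least 1 CPM in all 4 groups (1 cholesterol gene is not shown), in RCC4 (red circles) and HepG2 (blue squares). Most glycolytic genes lie further right in HepG2, with SLC2A1, HK2 and ENO2 further right in RCC4, and most cholesterol synthesis genes lie left of 0 in HepG2 (HMGCS1 at -0.93) and near 0 in RCC4 (0.11).

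Of 17 angiogenic and vasoactive factors, 5 responded more in HepG2 and 2, EDN1 and STC2, more in RCC4. Over all genes tested the shares were 11.7% and 10.9%. VEGFA, the principal angiogenic factor, rose from 29.3, 27.8 and 29.4 to 53.5, 53.0 and 51.0 CPM in RCC4 and from 64.9, 74.5 and 68.8 to 189.7, 180.4 and 174 CPM in HepG2 (difference -0.52 ± 0.080, edgeR adjusted p = 9.7e-05). VEGFB was induced in HepG2 by 1.35 ± 0.069, against a log2 fold change of 0.061 ± 0.060 in RCC4 that did not pass the test. PDGFB, the platelet-derived growth factor B chain, went from 3.81, 3.32 and 3.39 to 20.4, 17.7 and 20.4 CPM in HepG2 and from 7.25, 6.75 and 5.25 to 6.77, 5.18 and 5.61 CPM in RCC4. EPO, the erythropoietin gene, a classical target in hepatoma cells, rose from 4.12, 5.46 and 4.46 to 22.5, 21.6 and 20.8 CPM in HepG2 and had 0 counts in all 6 RCC4 samples, which allows a level of up to 0.0579 to 0.0714 CPM there. ANGPTL4, an inhibitor of lipoprotein lipase, rose in both lines, by 5.73 ± 0.17 and 5.36 ± 0.19, with a difference of 0.38 ± 0.35 whose interval of -0.35 to 1.10 leaves sizeable differences possible in either direction.

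Enzymes that modify collagen went further in HepG2, with 11 of 15 tested genes of the matrix list responding more in HepG2 and none more in RCC4 (median difference -0.662). LOX, lysyl oxidase, rose from 41.3, 41.7 and 39.9 to 303, 305 and 283 CPM in RCC4 and from 22.1, 19.6 and 24.7 to 349.9, 351 and 348 CPM in HepG2 (difference -1.12 ± 0.087). LOXL2, its relative, rose by 1.21 ± 0.094 and 3.08 ± 0.12. LOXL1 went from 0.507, 0.286 and 0.277 to 1.85, 1.10 and 1.08 CPM in HepG2, and from 8.42, 8.90 and 8.42 to 10.8, 9.45 and 8.88 CPM in RCC4, where the change did not pass the test. PLOD2, a lysyl hydroxylase, rose by 1.00 ± 0.067 and 2.23 ± 0.070, and P4HA2, a prolyl hydroxylase subunit, by 0.71 ± 0.048 and 1.57 ± 0.049. LOXL3 was nearly silent in RCC4, at 6 counts or fewer, and rose from 0.860, 0.814 and 0.485 to 5.75, 4.61 and 4.81 CPM in HepG2.

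The small list of mitophagy receptors and mTORC1 regulators was divided. BNIP3, a mitophagy receptor and HIF target, rose more in RCC4, from 40.8, 41.2 and 39.2 to 387, 397 and 374 CPM against 100.5, 102 and 95.9 to 604, 580.5 and 527 CPM in HepG2 (difference 0.74 ± 0.076, edgeR adjusted p = 8.0e-07). Its homologue BNIP3L rose more in HepG2, from 36.2, 32.4 and 32.5 to 396, 364 and 339.8 CPM against 85.2, 80.5 and 90.4 to 379, 389 and 378 CPM (difference -1.28 ± 0.086, edgeR adjusted p = 2.9e-09). The 2 homologues therefore differed between the lines in opposite senses. DDIT4, an inhibitor of mTORC1, responded more in RCC4 (difference 0.63 ± 0.088). Of 17 histone and DNA demethylases, 4 responded more in HepG2, namely KDM3A, KDM4B, KDM5B and JMJD6 (differences -0.29, -0.77, -0.80 and -0.33), and 1, KDM4A, in RCC4 (0.21), a call that was lost under most alternatives. Over all alternatives between 2 and 7 of these genes favoured HepG2, the highest without the third normoxic HepG2 replicate and the lowest with all 18 samples. In the main fit 11.7% of all genes tested favoured HepG2 and 10.9% RCC4. Of 15 hypoxia-linked transcription factors, 7 responded more in HepG2 and 1, MYC, in RCC4 (0.30); over the alternatives 6 to 9 favoured HepG2 and 0 to 3 RCC4, the 3 without the third hypoxic HepG2 replicate. The circadian repressors BHLHE40 and BHLHE41 rose by 1.38 ± 0.12 and 1.09 ± 0.14 in RCC4 and by 2.88 ± 0.13 and 2.66 ± 0.25 in HepG2. FOS went from 1.04, 1.21 and 1.59 to 4.28, 3.52 and 3.35 CPM in HepG2, and from 0.450, 0.553 and 0.488 to 0.267, 0.538 and 0.576 CPM in RCC4, where no change passed the test.

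**Figure D3:**
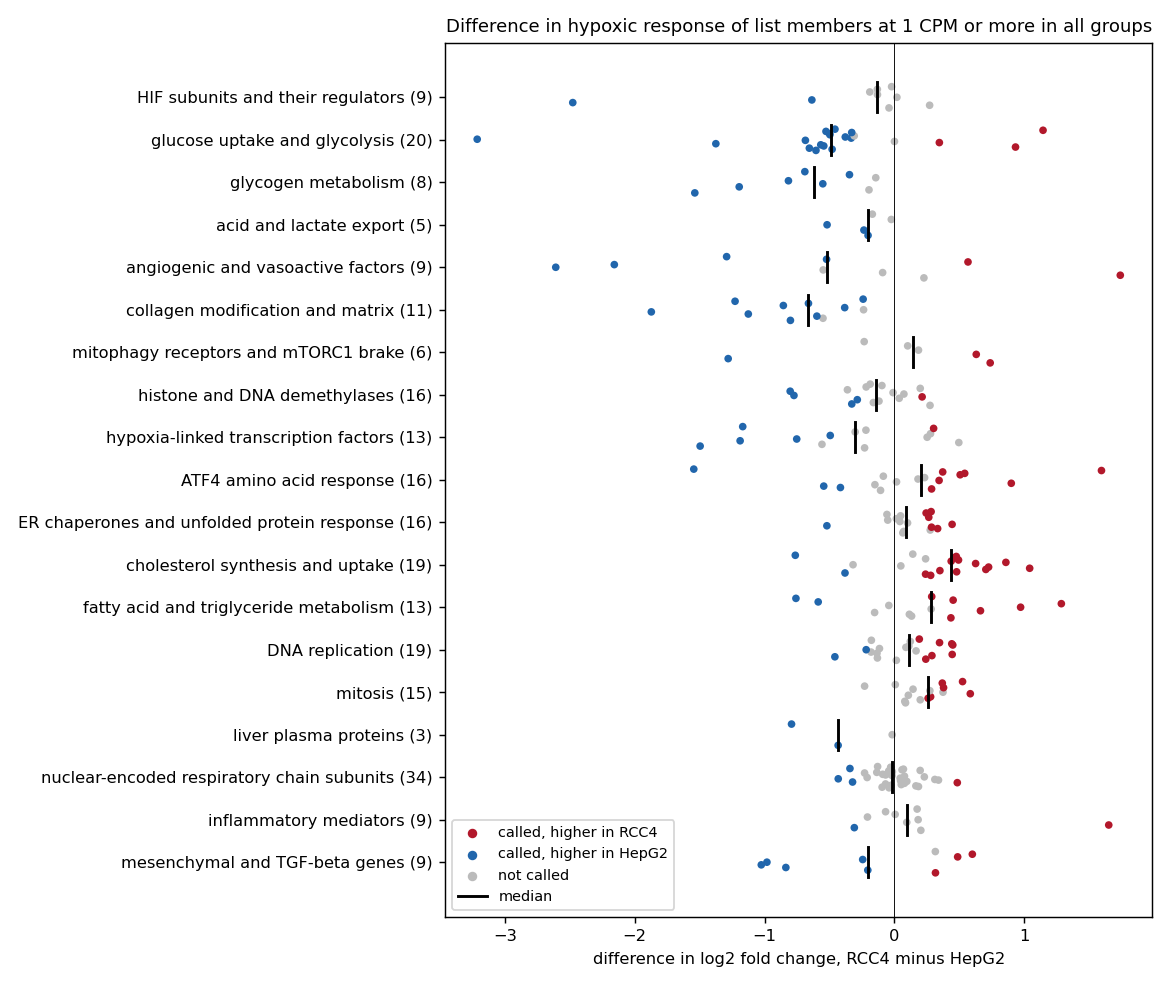
Difference in log2 fold change, RCC4 minus HepG2, for list members with a mean of at least 1 CPM in all 4 groups (number in brackets); red and blue points are genes whose response was called higher in RCC4 or HepG2, grey points were not called, and black lines are medians of the members shown. Points of the glycolysis, glycogen and collagen lists lie mostly left of 0 and those of the cholesterol list mostly right of 0.

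Cholesterol synthesis separated the lines in the other direction, with a fall in HepG2. Of 21 genes of cholesterol synthesis and uptake, 14 were repressed and 2 induced in HepG2, against 6 repressed and 2 induced in RCC4, and the responses of 13 were higher in RCC4 and of 2, SREBF1 and DHCR7, higher in HepG2 (median difference 0.438). HMGCS1, which makes HMG-CoA, went from 229.8, 173 and 235 to 117, 104 and 114 CPM in HepG2 and from 101, 98.9 and 98.6 to 109.7, 102 and 111 CPM in RCC4 (difference 1.04 ± 0.12, edgeR adjusted p = 2.6e-06). MSMO1, an oxygen-consuming sterol demethylating enzyme, had log2 fold changes of -0.86 ± 0.058 in HepG2 and -0.0028 ± 0.058 in RCC4, and IDI1, the isopentenyl diphosphate isomerase, of -0.79 ± 0.052 and -0.062 ± 0.052. Neither passed the test in RCC4. INSIG2, whose product holds the sterol regulators in the endoplasmic reticulum, rose alike in both lines, by 1.59 ± 0.068 in RCC4 and 1.54 ± 0.063 in HepG2 (interval of the difference -0.14 to 0.24). SREBF1, the lipogenic transcription factor gene, changed in opposite directions, by -0.35 ± 0.066 in RCC4 and 0.42 ± 0.066 in HepG2, and SREBF2 passed the test in neither.

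Other lipid genes were mixed. GPAM, the first enzyme of glycerolipid synthesis, fell from 169.5, 173 and 173 to 72.0, 70.5 and 62.1 CPM in HepG2 and stood at 19.2, 19.1 and 19.9 and 19.7, 18.1 and 18.6 CPM in RCC4 (difference 1.29 ± 0.084, edgeR adjusted p = 1.9e-09). ELOVL6, a fatty acid elongase, changed by 0.41 ± 0.088 in RCC4 and -0.56 ± 0.081 in HepG2. CPT1A, which admits fatty acids to mitochondria for oxidation, went from 2.12, 1.80 and 1.44 to 0.964, 1.14 and 0.801 CPM in RCC4 and from 19.7, 18.9 and 17.2 to 26.5, 22.7 and 23.1 CPM in HepG2 (difference -1.26 ± 0.20). PLIN2 and HILPDA, which coat and protect lipid droplets, rose in both lines and more in HepG2, with differences of -0.76 ± 0.079 and -0.59 ± 0.12. Of the 15 genes, 6 favoured RCC4 and 3 HepG2 (4 and 3 with all 18 samples).

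Among 18 genes of the ATF4 amino acid response, 7 favoured RCC4 and 3 HepG2 (5 and 2 with all 18 samples), and the list was largely not induced in either line, with 4 induced and 8 repressed in RCC4 and 2 induced and 9 repressed in HepG2. Beside TRIB3, SLC3A2, the heavy chain of amino acid exchangers, had log2 fold changes of 0.39 ± 0.057 in RCC4 and -0.12 ± 0.057 in HepG2, and DDIT3 (CHOP) of -0.053 ± 0.11 and -0.95 ± 0.11, of which the first of SLC3A2 and the second of DDIT3 passed the test. VLDLR, a lipoprotein receptor placed in this list, went against it with a rise from 6.13, 6.32 and 7.78 to 30.5, 24.7 and 25.6 CPM in HepG2 and from 108, 104 and 102 to 146, 141 and 143 CPM in RCC4. Of 16 genes of endoplasmic reticulum chaperones and the unfolded protein response, 6 favoured RCC4, all by less than 0.5 on the log2 scale, and 1, the oxidase gene ERO1L, favoured HepG2 (-0.52 ± 0.095). The 6 became 2 with all 18 samples in the fit, and 4 without the third hypoxic RCC4 or the first hypoxic HepG2 replicate.

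Proliferation genes differed little in size. Of 19 DNA replication genes 7 favoured RCC4 and 2 HepG2, and of 15 mitosis genes 6 favoured RCC4 and none HepG2, with median differences of 0.111 and 0.26. These counts depended on the fit: over the alternatives 4 to 9 and 3 to 7 genes favoured RCC4, and the replication count was 4 without the third hypoxic RCC4 or the first hypoxic HepG2 replicate. CDK1, the mitotic kinase, went from 113, 115 and 112 to 124, 131 and 123 CPM in RCC4 and from 109, 129 and 112 to 87.5, 90.4 and 81.6 CPM in HepG2, and TTK, a spindle checkpoint kinase, changed by 0.29 ± 0.052 and -0.23 ± 0.054. Among 35 nuclear-encoded respiratory chain subunits 1 favoured RCC4 and 4 HepG2, against 10.9% and 11.7% of all genes tested. Their median difference was -0.0243. Without the third normoxic HepG2 replicate the count was 7 to 4 and the median 0.0309, so that the list has no stable direction. The exception in size was NDUFA4L2, a HIF-induced paralogue of a cytochrome oxidase subunit, which rose from 0.132, 0.308 and 0.369 to 6.14, 5.82 and 5.36 CPM in HepG2 and had 9 counts or fewer in each RCC4 sample. Of 13 mesenchymal and TGF-β genes, 3 favoured RCC4 and 5 HepG2 (2 and 3 with all 18 samples), and the median difference turned from -0.205 to 0.057 without the first hypoxic HepG2 replicate. SNAI1, the epithelial to mesenchymal transition factor Snail, went from 4.99, 5.47 and 5.93 to 2.79, 2.99 and 3.15 CPM in RCC4 and from 5.20, 6.05 and 6.60 to 6.10, 6.45 and 7.28 CPM in HepG2, TGFB1 changed by -0.23 ± 0.065 and 0.75 ± 0.066, and VIM, vimentin, rose by 0.60 ± 0.068 in RCC4 against -0.00020 ± 0.14 in HepG2, where it was scarce. Of 15 inflammatory mediators, IL8 favoured RCC4 and IL32 HepG2 (-0.31 ± 0.067), but over the alternatives 1 to 3 genes favoured RCC4, the 3 without the second normoxic HepG2 replicate, and 1 to 2 HepG2. For this list, too, the shares over all genes tested were 10.9% and 11.7%.

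Liver plasma protein genes could be compared only where RCC4 expressed them. Of 20 tested, 1 was called in favour of RCC4 and 3 in favour of HepG2, and 3 were at 1 CPM or more in all 4 groups. Over all genes tested 10.9% favoured RCC4 and 11.7% HepG2. SERPINA1, α1-antitrypsin, went from 5153, 4785 and 4524 to 7847, 7514 and 7637 CPM in HepG2 and from 10.3, 9.34 and 10.4 to 10.3, 8.33 and 8.98 CPM in RCC4 (difference -0.79 ± 0.10), and C3, the complement component, rose by 0.53 ± 0.064 in HepG2, against 0.10 ± 0.064 in RCC4, which did not pass the test. AFP, α-fetoprotein, and TF, transferrin, were called different on 0, 1 and 0 and 1, 0 and 4 counts in normoxic and 10, 5 and 1 and 0, 0 and 0 counts in hypoxic RCC4 samples. These calls rest on at most 10 reads in an RCC4 sample beside at least 76411 in each HepG2 sample, and each was lost when any of several single RCC4 libraries was left out.

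Calls that rest on a line near silence were a small part of calls of any size, but a large part of the large ones. Over all genes tested, 145 differences of at least 1 on the log2 scale favoured RCC4 and 371 HepG2. Genes under 1 CPM in both RCC4 groups gave 46 and 115 of these, and genes under 1 CPM in both HepG2 groups 46 and 59. Of 3034 genes under 1 CPM in both RCC4 groups 168 (5.54%) were called different, and of 1170 under 1 CPM in both HepG2 groups 116 (9.91%). Those named for a large response in the other line were, in RCC4, CYP26B1, a retinoic acid hydroxylase, which rose from 0.0783, 0.276 and 0.209 to 4.70, 3.31 and 5.49 CPM, the uncharacterised transcript LOC100506134, which rose from 0.157, 0.0987 and 0.0232 to 8.88, 7.75 and 8.73 CPM, and SLC6A13, a GABA transporter, which fell from 2.37, 1.74 and 2.67 to 0.328, 0.657 and 0.493 CPM. All 3 were between 0.0923 and 0.604 CPM in HepG2. UCHL1, also chosen by the rule, had 1, 0 and 0 counts in normoxic and 0, 0 and 229 counts in hypoxic RCC4 samples, so that 1 library decides its difference, which was -1.94 without that library (edgeR adjusted p = 0.60). UCHL1 held 22 to 50 counts in each HepG2 sample. In HepG2 the corresponding genes were TIMD4, LOC399715, FBXO15 and DNAJB13, with between 0 and 2 counts in each normoxic and between 0 and 26 in each hypoxic HepG2 sample. The RCC4 samples held 40 to 56 counts of TIMD4, 15 to 43 of LOC399715, 8 to 18 of FBXO15 and 12 to 35 of DNAJB13. For these genes the line with the large response was thus itself nearly silent. Opposite responses named by rule included DNAH11, ZBED2, IGSF11, CCDC19 and COL4A4, induced in RCC4 but with at most 4 counts in any HepG2 sample, and HR, NKAIN4, TMEM86A and IGSF23, repressed in RCC4 and induced in HepG2. Of these TMEM86A was the best expressed in RCC4, falling from 36.2, 36.6 and 41.0 to 16.4, 15.2 and 17.0 CPM, and HR, a histone demethylase-like corepressor, rose from 1.39, 1.32 and 0.739 to 8.74, 5.56 and 6.75 CPM in HepG2. The other line held few counts. TMEM86A went from 4, 14 and 2 to 17, 26 and 5 counts in HepG2, where the groups overlapped. HR went from 23, 29 and 19 to 5, 1 and 4 counts in RCC4, and NKAIN4 from 1, 0 and 0 to 15, 6 and 7 counts in HepG2.

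HKC-8, a renal proximal tubule line in the same series, is labelled with the oxygen and duration of HepG2 (though its sample titles give 0.1% oxygen), and its own responses, from a fit of all 18 samples, are set beside those above. In that fit 16.4% of the 15307 genes tested were induced and 16.4% repressed in HKC-8. Of 111 genes whose response was higher in HepG2 than RCC4 by at least 1 and that reached 1 CPM in all 6 groups, the HKC-8 response was nearer to RCC4 for 83 (74.8%), against 49.3% of all 10038 genes at that level. Median log2 fold changes of these 111 genes were 0.02 in RCC4, 0.367 in HKC-8 and 1.44 in HepG2. Of 32 genes higher in RCC4 by at least 1, HKC-8 was nearer to RCC4 for 20 (62.5%), with medians of 0.76, 0.319 and -0.429 in RCC4, HKC-8 and HepG2. The genes were chosen by extreme values in RCC4 and HepG2, and the shares are a description.

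Of the 8 genes with the largest differences in favour of HepG2, the HKC-8 response differed from that of HepG2 for all 8 and from that of RCC4 for 4, at an edgeR adjusted p under 0.05. Both sets of 8 genes in this paragraph were chosen by extreme values in the same RCC4 and HepG2 samples. That choice favours a difference from the extreme line, so the counts are a description only. In HKC-8 the log2 fold change was -0.0012 ± 0.071 for TNS1, 0.27 ± 0.11 for HAVCR1, 0.25 ± 0.092 for SMIM3 and 0.047 ± 0.12 for FAM13A, and of these 4 that of SMIM3 passed the test (edgeR adjusted p = 0.045). For TNS1 the response nevertheless differed from that of RCC4, where the gene fell. ABCA7 and CHST15 were induced in HKC-8, by 0.75 ± 0.16 and 0.54 ± 0.067. FGF11 and PFKFB3 took intermediate values of 3.35 ± 0.17 and 1.77 ± 0.11. Of the 8 in favour of RCC4, HKC-8 differed from HepG2 for 4 and from RCC4 for 4. SYTL2, PCDH1, ARRDC3 and TRIB3 were induced in HKC-8 too, by 2.35 ± 0.14, 2.33 ± 0.26, 2.03 ± 0.25 and 2.00 ± 0.10, as were EDN1 and F3, by 1.02 ± 0.27 and 0.89 ± 0.23, while the values for KIAA0513 and IL8 were -0.14 ± 0.16 and 0.52 ± 0.31 and did not pass the test.

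**Figure D4:**
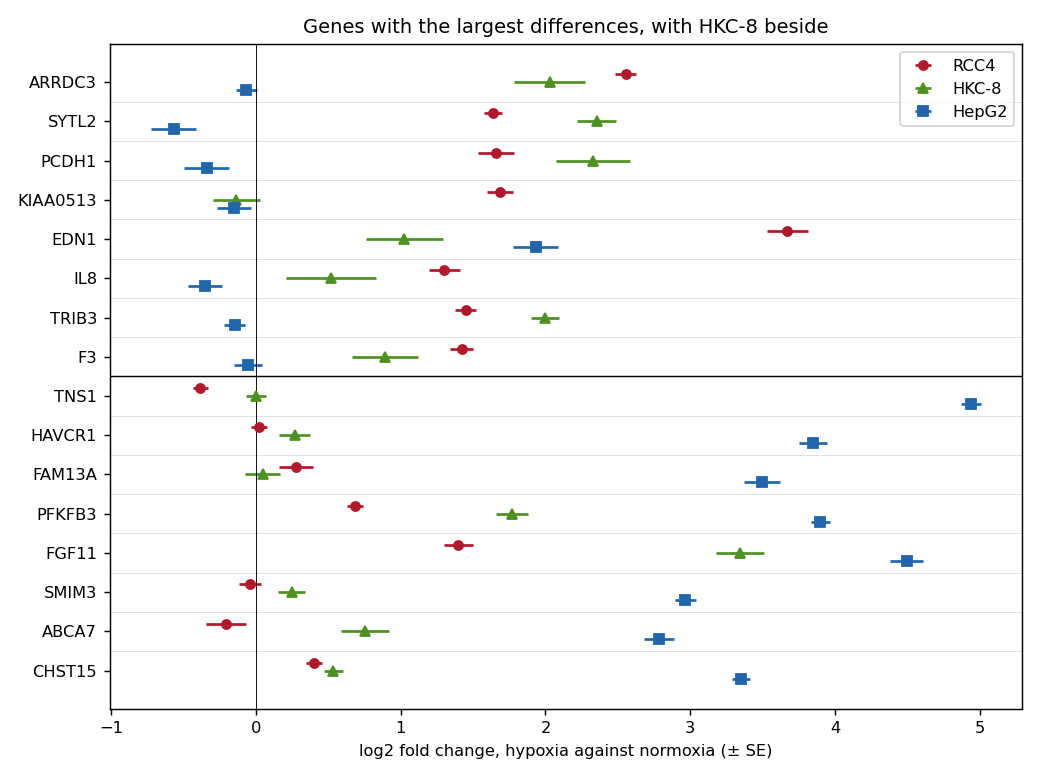
Log2 fold change in hypoxia (x axis, ± SE of the edgeR fit, 3 replicates per group) of the 8 genes with the largest differences in favour of RCC4 (upper rows) and of HepG2 (lower rows), in RCC4 (red circles), HKC-8 (green triangles, from the fit of 18 samples) and HepG2 (blue squares). For TNS1, HAVCR1, FAM13A and SMIM3 the HKC-8 value lies far below that of HepG2, though above that of RCC4 for TNS1 (-0.0012 against -0.38), whereas for FGF11 (3.35) it lies nearer to HepG2.

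The pathway lists placed HKC-8 differently from gene list to gene list. Over all 15307 genes of the 18-sample fit the HKC-8 response was called above that of RCC4 for 1103 and below it for 1280, and above that of HepG2 for 1010 and below it for 1209. Of the 21 glycolytic genes 20 were induced in HKC-8, with a median of 1.02, and the HKC-8 response was below that of HepG2 for 16 and above it for 2, but below that of RCC4 for 7 and above it for 3. In the matrix list 6 of 15 responses were below HepG2 and 1 above. For cholesterol synthesis and uptake HKC-8 departed from both lines: 18 of 21 genes were induced, with a median of 0.517, and the response was above that of RCC4 for 15 and above that of HepG2 for 17. The ATF4 list was likewise induced in HKC-8, 17 of 18 genes with a median of 1.05, above RCC4 for 14 and above HepG2 for 15. DDIT3, for example, rose by 0.91 ± 0.15 in HKC-8 and HMGCS1 by 0.75 ± 0.12.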

How the data were processed

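PolyA+ RNA-seq of 12 samples was analysed, 3 per group, grouped by GEO's labels, with 6 HKC-8 samples beside them. The deposited files hold whole-number read counts for 23106 genes. The submitters' processing notes name Trim Galore 0.3.3, TopHat2 2.0.8b, Bowtie 1.0.0, SAMtools 0.1.19 and HTSeq 0.5.4p3, and the build GRCh37. Reads from overlapping genes or near-identical copies can be lost or split by such counting.

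Counts were tested in R 4.3.3 with edgeR 4.0.16 (quasi-likelihood, TMM, filterByExpr, 1 mean per group), the contrast being the RCC4 minus the HepG2 response, with Benjamini-Hochberg adjustment over 14813 genes and a threshold of 0.05. Alternatives used DESeq2 1.42.0, voom in limma 3.58.1, other scalings and filters, all 18 samples, a replicate block and single libraries left out. On simulated counts for this contrast (14656 genes, 200 changed by 1.5 on the log2 scale) 90.5% of changed genes were recovered and 7.18% of calls were false. That false share was above the threshold of 0.05. Changes were placed only in genes with an average log2 CPM above 0, and each gene varied equally in both lines, unlike the data. The median size of the real called differences was 0.452, so the recovery rate does not extend to most of them. Named genes were the HIF subunits and VHL, the 8 largest differences per direction at 1 CPM or more, 4 per line with means under 1 CPM in both groups of the other, 5 opposite per orientation, 6 alike and up to 3 per list. Members and lists were chosen with earlier results of these data known, and further opposite genes at 1 CPM or more and other list members given as examples were chosen after their values were seen. Promoters came from RefSeq (GRCh38.p14), matched for 77.5% of genes tested and under 80% of several sets, so that their shares are limited. Gene positions are GRCh37 (GENCODE). Values of 3 list genes, which stay in the counts, are not reported here.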

Additional observations from a re-analysis of the deposited data

Results flagged for a closer look

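The 67 named genes below are listed because a test of the difference itself found unlike responses to hypoxia in RCC4 and HepG2 (interaction of cell line and oxygen, edgeR adjusted p under 0.05). Values are differences in log2 fold change, RCC4 minus HepG2. Among genes with a mean of at least 1 CPM in all 4 groups, the response was higher in RCC4 for ARRDC3 2.62, SYTL2 2.21, PCDH1 2.00, KIAA0513 1.84, EDN1 1.74, IL8 1.65, TRIB3 1.59, F3 1.48, HMGCS1 1.04, GPAM 1.29, NFKBIZ 1.47, SCARA3 1.30, MARCH3 1.18, C4orf32 1.22 and NAV3 1.36. It was higher in HepG2 for TNS1 -5.32, HAVCR1 -3.83, FAM13A -3.22, PFKFB3 -3.21, FGF11 -3.10, SMIM3 -3.01, ABCA7 -2.99, CHST15 -2.95, PGK1 -0.33, CITED2 -2.48, HK1 -1.38, GBE1 -1.54, GYS1 -1.20, PDGFB -2.61, LOXL2 -1.87, BNIP3L -1.28, BHLHE40 -1.50, VLDLR -1.54, SNAI1 -1.02, NRARP -2.23, BMF -2.30, KIAA1199 -2.49, ELFN1 -2.06, ELF3 -2.00 and DUSP8 -1.49. Differences of genes under 1 CPM in at least 1 group, whose size depends on few counts, were UCHL1 7.23, LOC100506134 5.87, CYP26B1 4.47, SLC6A13 -3.02, TIMD4 -6.63, LOC399715 -5.79, FBXO15 -5.22, DNAJB13 -4.38, DNAH11 5.50, ZBED2 5.57, IGSF11 5.16, CCDC19 6.03, COL4A4 3.85, HR -5.41, ESPN -3.86, NKAIN4 -6.08, TMEM86A -2.52, IGSF23 -2.32, SLC2A3 3.60, LOXL3 -3.18, LOXL1 -1.72, FOS -1.65, BHLHE41 -1.57, CPT1A -1.26, TF -4.78, AFP 3.48 and NDUFA4L2 -5.98. Cell line, oxygen level and duration cannot be told apart for any of them. Groups of 3 samples were too small for a test of single outlying samples.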

How the results depend on the processing

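Of the 77 named genes 68 had a called difference, and for 58 of these the call held under every alternative that tested them. The calls of UCHL1, FBXO15, DNAH11, ZBED2, IGSF11, SLC2A3, LOXL3, TF, AFP and NAV3 were lost under at least 1. Total count scaling gave 3868 repressed genes in RCC4 and 4493 in HepG2. With all 18 samples in the fit, 1886 differences were called, 925 higher in RCC4 and 961 higher in HepG2, and 1419 genes were repressed in RCC4; the cause was not tested. Differences called were 3762 with DESeq2, 3323 with voom, 3318 with median-of-ratios size factors, 3431 with total count scaling, 3344 with no filter and 3383 with at least 10 counts in every sample. Leaving out 1 library at a time gave 2755 to 3701. Without the third normoxic HepG2 replicate the differences of HIF1A (-0.30) and EPAS1 (-0.20) passed the test, and without the third hypoxic HepG2 replicate that of ADM (0.28) did. Uncalled differences near 0 changed sign: with single libraries left out ARNT ranged from -0.11 to 0.016 and VHL from -0.076 to 0.062, and LDHA went to -0.011 with DESeq2, -0.011 with median-of-ratios size factors, -0.014 with at least 10 counts, -0.00060 with voom and to between -0.046 and 0.044 with single libraries left out. SLC2A5 took -0.65 with DESeq2, -2.31 with voom and -3.55 to 0.60 with single libraries left out, and UCHL1 -1.94 (without the third hypoxic RCC4 replicate) to 9.06. Replicate numbers were not taken to pair the samples: deviations of same-numbered samples correlated at -0.022, 0.025 and -0.0027 in RCC4 and 0.12, 0.050 and 0.13 in HepG2, where every sample correlated best with its own number. With the replicate number as a block 3658 differences were called, 1783 higher in RCC4 and 1875 higher in HepG2, and LDHA stood at -0.00094. Genes of few counts in a line limit what depth can resolve.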
